A study of Homo sapiens with 6 samples.

Results

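Mitochondrial ribosomal protein genes were compared between parental LNCaP cells and LNCaP-enzaR cells by RNA sequencing. Members were the protein-coding genes whose symbols begin with MRPL or MRPS and a number, and 77 of the 35554 genes in the table met this rule, 48 of them named for the large subunit (MRPL) and 29 for the small subunit (MRPS). A further 27 genes matched the name pattern without being protein-coding, and they were not counted as members. LNCaP is an established line from a metastasis of human prostate carcinoma that responds to androgens. LNCaP-enzaR was derived from it by prolonged growth in enzalutamide, a drug against androgen signalling, and the study's methods state that the line was then kept on a lower concentration of the drug. The labels leave unsaid if the medium held the drug at harvest, and whether the resistant line is a single clone is not given in the sources used here. Each line was represented by 3 flasks (n = 3), so that p-values measure the spread between flasks of a line and not between independent selections. The line and its drug history cannot be told apart in this design.

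The mitochondrial ribosome, or mitoribosome, translates the 13 messenger RNAs of the mitochondrial genome, all of which encode subunits of the oxidative phosphorylation complexes. Its ribosomal RNAs come from the mitochondrial genome, whereas every one of its proteins is encoded in the nucleus, made in the cytosol and imported. The small subunit binds the messenger RNA and decodes it, and the large subunit forms the peptide bond and holds the tunnel through which the new protein leaves. Some of these proteins have bacterial homologues, and others are found only in mitochondrial ribosomes. Prostate epithelium is known for an unusual mitochondrial metabolism, in which citrate is secreted rather than oxidised, and prostate cancer cells depend more on respiration.

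Genes for mitochondrial proteins often carry short promoter motifs for nuclear respiratory factor 1 (NRF1), ETS family factors such as GABP, or YY1. RefSeq start sites of GRCh38.p14 gave a window of 250 bases before to 50 bases after the start for 68 of the 77 genes. The 150 bases that end just before the start are printed in lower case, 5′ to 3′ on the gene's strand, with every copy of the NRF1 core (GCATGCGC or its reverse complement GCGCATGC) in capitals. MRPL11 and MRPS9 are shown because their expression differed most between the lines, and neither window held any of the motifs searched. MRPL17, MRPL22 and MRPL32 are shown because they were lower in LNCaP-enzaR and carried the NRF1 core, and MRPS18B because it carried the same core with an expression that did not pass the test. The stretches are chr11:66438849-66438998 (minus strand) for MRPL11, chr2:105037919-105038068 (plus strand) for MRPS9, chr11:6683341-6683490 (minus strand) for MRPL17, chr5:154940923-154941072 (plus strand) for MRPL22, chr7:42932226-42932375 (plus strand) for MRPL32 and chr6:30617690-30617839 (plus strand) for MRPS18B.
MRPL11: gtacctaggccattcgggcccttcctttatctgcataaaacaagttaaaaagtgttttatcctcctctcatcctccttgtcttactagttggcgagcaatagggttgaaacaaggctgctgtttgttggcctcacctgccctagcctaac
MRPS9: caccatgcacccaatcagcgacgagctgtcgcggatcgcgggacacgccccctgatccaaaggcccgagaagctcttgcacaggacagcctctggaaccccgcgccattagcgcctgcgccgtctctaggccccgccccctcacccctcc
MRPL17: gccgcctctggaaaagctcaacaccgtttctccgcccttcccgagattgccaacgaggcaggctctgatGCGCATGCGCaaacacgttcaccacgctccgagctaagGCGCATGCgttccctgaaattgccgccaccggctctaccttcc
MRPL22: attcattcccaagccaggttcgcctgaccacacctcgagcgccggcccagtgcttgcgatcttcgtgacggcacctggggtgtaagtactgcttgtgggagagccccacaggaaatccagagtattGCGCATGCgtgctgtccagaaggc
MRPL32: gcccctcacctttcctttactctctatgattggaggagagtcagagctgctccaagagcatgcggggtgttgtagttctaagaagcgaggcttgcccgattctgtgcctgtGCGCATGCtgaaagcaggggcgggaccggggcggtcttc
MRPS18B: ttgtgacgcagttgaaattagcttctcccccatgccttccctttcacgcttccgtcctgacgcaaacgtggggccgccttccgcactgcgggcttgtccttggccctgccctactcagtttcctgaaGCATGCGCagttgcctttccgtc

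Across the windows of all 68 genes, the ETS core (CCGGAAG or CTTCCGG) was found in 28 (41.2%), against 10.7% of the windows of all 27305 genes with a RefSeq start and 21.8% of the 8369 protein-coding genes expressed here at a mean of at least 5 CPM (counts scaled to a library total of 1000000). The YY1 core (GATGGCGG or CCGCCATC) was found in 13 windows (19.1%, against 2.44% and 5.45%), the NRF1 core in 6 (8.82%, against 3.27% and 6.03%) and the E-box CACGTG in 7 (10.3%, against 7.43% and 10.7%). The motifs were searched on both strands, and none of them contains another. Among the 13 of these genes that were lower past the threshold defined below, 3 held the ETS core, 3 the NRF1 core and 3 the YY1 core, whereas among the 55 others 25 held the ETS core, 3 the NRF1 core and 10 the YY1 core. These are matches of letters and not binding sites, and no test was run on them.

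Expression of the group was lower in LNCaP-enzaR. Summed over the 77 genes, it was 5645, 5703 and 5678 CPM in the parental libraries (5675 ± 28.7, SD, n = 3) and 4946, 4622 and 4630 CPM in the LNCaP-enzaR libraries (4733 ± 185), so that it fell by 16.6% with no overlap between the lines. On the log2 scale the change was −0.26, and −0.16 under upper-quartile scaling. Of all counts, the members took 0.574% in the parental line and 0.467% in LNCaP-enzaR. Counts on the mitochondrial genome took 6.87% and 15.1%, respectively, and of the counts outside it the members took 0.617% and 0.550%. In bulk samples, a lower level in every cell and fewer cells with a high level cannot be told apart.

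Taken gene by gene, 60 of the 77 members had a lower mean in LNCaP-enzaR and 17 a higher mean. The median log2 fold change was −0.25, with quartiles at −0.51 and −0.02 and a range from −1.46 to 0.37. Under upper-quartile scaling the members' median was −0.15, and that of all genes was 0.11. Over all 19711 genes tested the median was 0.01. Expressed protein-coding genes, a closer background for the members, had a lower median of −0.09. Their quartiles were −0.51 and 0.36, so that the lower quartile was near that of the members. The threshold for a call was 1.5-fold together with an adjusted p not above 0.05 (edgeR quasi-likelihood test, Benjamini-Hochberg adjustment over all genes tested). By this rule 14 members (18.2%) were lower and 0 were higher, as DESeq2 also called 0 higher, while 4 members were higher and 50 lower at an unadjusted p under 0.05 in edgeR. Over all genes tested, 42.7% passed in either direction, 19.5% lower and 23.3% higher, and over the 10183 protein-coding genes with a mean of at least 5 CPM 38.1% passed, 21.3% lower and 16.8% higher. The share of members past the threshold on the lower side was thus near the background, and no member passed on the higher side.

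Without a minimum fold, 48 members (62.3%) were lower and 3 were higher at an adjusted p of at most 0.05, while 26 did not pass (edgeR quasi-likelihood test). The background for this rule was 66.3% of all genes, 32.8% lower and 33.5% higher, and 78.7% of the expressed protein-coding genes, 44.8% lower and 33.9% higher. Most members on the lower side therefore differed by less than 1.5-fold. The libraries of both lines did not overlap for 48 members that were lower and 5 that were higher in LNCaP-enzaR, and they overlapped for 24. Over all genes, 70.6% did not overlap between the lines, 35% lower and 35.6% higher, and over the expressed protein-coding genes 81%, 46% lower and 35% higher. The plot of fold changes by gene shows this continuous spread.

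**Figure D1:**
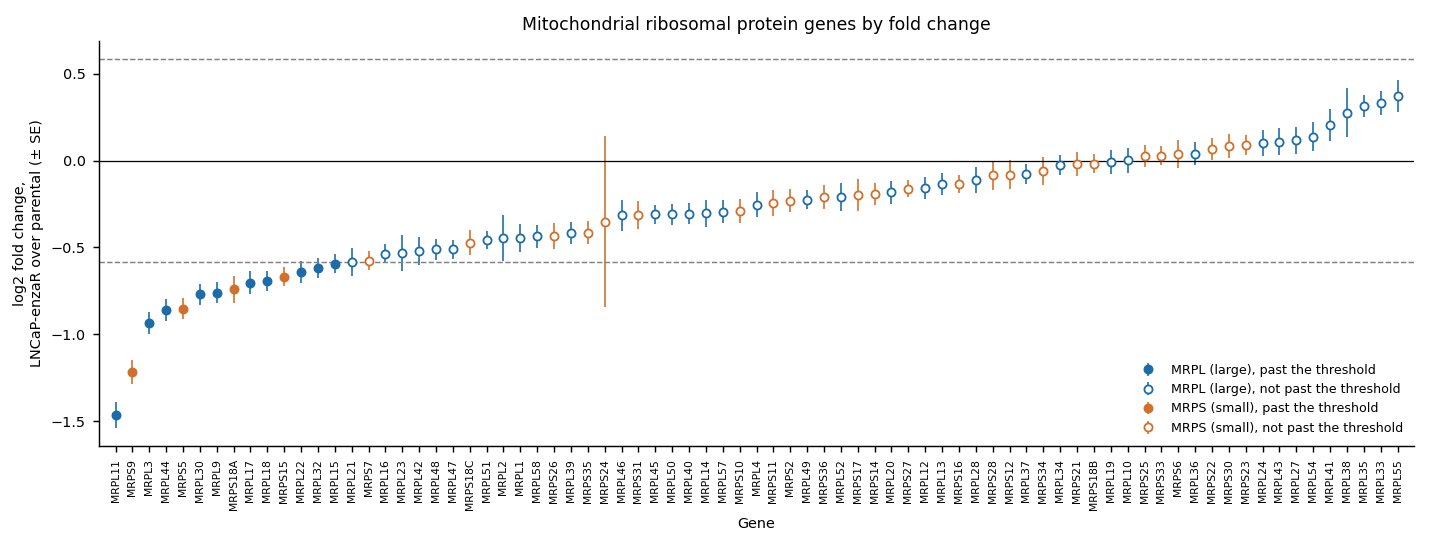
Log2 fold change (LNCaP-enzaR over parental, ± SE) of each of the 77 genes, ordered from the lowest to the highest value, with large and small subunit genes in separate colours and filled points for the 14 genes past the threshold. The values run from −1.46 for MRPL11 to 0.37 for MRPL55, and every filled point lies below 0.

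MRPL11, which forms the base of the stalk that recruits translation factors to the large subunit, differed most. It measured 58.8, 60.8 and 65.1 CPM in the parental libraries and 24.0, 20.5 and 22.5 CPM in LNCaP-enzaR. The lines were far apart, and expression fell by 1.46 on the log2 scale (SE 0.07, adjusted p = 3.45e-10, edgeR quasi-likelihood test), which made parental expression 2.76-fold higher. The gene (ENSG00000174547.13) lies at chr11:66435075-66466738 on GRCh38.

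MRPS9, a conserved protein of the small subunit encoded at chr2:105038069-105099960, came next. Its parental libraries held 34.7, 31.7 and 32.4 CPM and its LNCaP-enzaR libraries 14.2, 14.2 and 14.0 CPM, so that replicates of the resistant line were nearly identical. The log2 fold change was −1.22 (SE 0.07, adjusted p = 1.16e-09, edgeR quasi-likelihood test). With MRPL11, it was the only member whose levels differed by more than 2-fold at that adjusted p.

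MRPL3, a conserved protein that reaches towards the peptidyl transferase centre, was the most highly expressed of the 14 genes. It was at 201, 196 and 192 CPM in parental cells and at 92.5, 110 and 106 CPM in LNCaP-enzaR, and fell by 0.94 on the log2 scale (SE 0.07, adjusted p = 1.32e-08, edgeR quasi-likelihood test). It lies at chr3:131462212-131502983, and mutations of it are known to impair mitochondrial translation.

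MRPL44 is a mitochondria-specific protein of the large subunit, related to ribonuclease III enzymes, and its mutations are known to cause infantile cardiomyopathy. It measured 50.9, 46.5 and 46.4 CPM in parental libraries and 25.8, 27.1 and 26.3 CPM in LNCaP-enzaR, with a log2 fold change of −0.86 (adjusted p = 3.01e-08, edgeR quasi-likelihood test). MRPS5, whose bacterial homologue contributes to the accuracy of decoding, was at 55.9, 55.7 and 54.6 CPM against 30.3, 31.4 and 30.4 CPM, with a log2 fold change of −0.85 (adjusted p = 1.12e-08, edgeR quasi-likelihood test). In both genes the highest LNCaP-enzaR library was well under the lowest parental one. They lie at chr2:223957463-223967714 and chr2:95085369-95149434.

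The other 9 genes past the threshold were MRPL30, MRPL9, MRPS18A, MRPL17, MRPL18, MRPS15, MRPL22, MRPL32 and MRPL15, with log2 fold changes from −0.77 to −0.59. None of them had overlapping libraries. MRPL9, a conserved protein of the large subunit, measured 52.1, 50.5 and 49.5 CPM in parental cells and 29.1, 29.9 and 30.8 CPM in LNCaP-enzaR. MRPL17, whose promoter is printed above, measured 103, 106 and 108 CPM against 70.7, 59.2 and 64.6 CPM, with a log2 fold change of −0.70. MRPL22, which lines the exit tunnel and also carried the NRF1 core, was at 49.6, 54.4 and 50.8 CPM against 32.8, 33.5 and 33.0 CPM, and MRPL32, a protein that is cut to its mature form by the m-AAA protease, at 79.0, 78.5 and 74.6 CPM against 49.7, 49.0 and 52.4 CPM.

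Of the 14 calls, 9 were kept under each of 17 alternatives that changed the scaling, filter, model or libraries at the same limits, and 5 were not. MRPL22 and MRPL32 lost the fold limit under upper-quartile scaling (log2 fold changes −0.54 and −0.52) and under a correction for GC content (−0.40 and −0.37), MRPL30 under the GC correction (−0.58) and MRPS15 under upper-quartile scaling (−0.57). MRPL15 was within 0.01 of the limit of 0.58 on the log2 scale (log2 fold change −0.59), and it lost the call under 9 of these alternatives, among them the fits without LNCaP-enzaR replicate 1 and without replicate 3 (−0.58 in both). Just outside the limit were MRPL21 and MRPS7, both with a log2 fold change of −0.58.

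**Figure D2:**
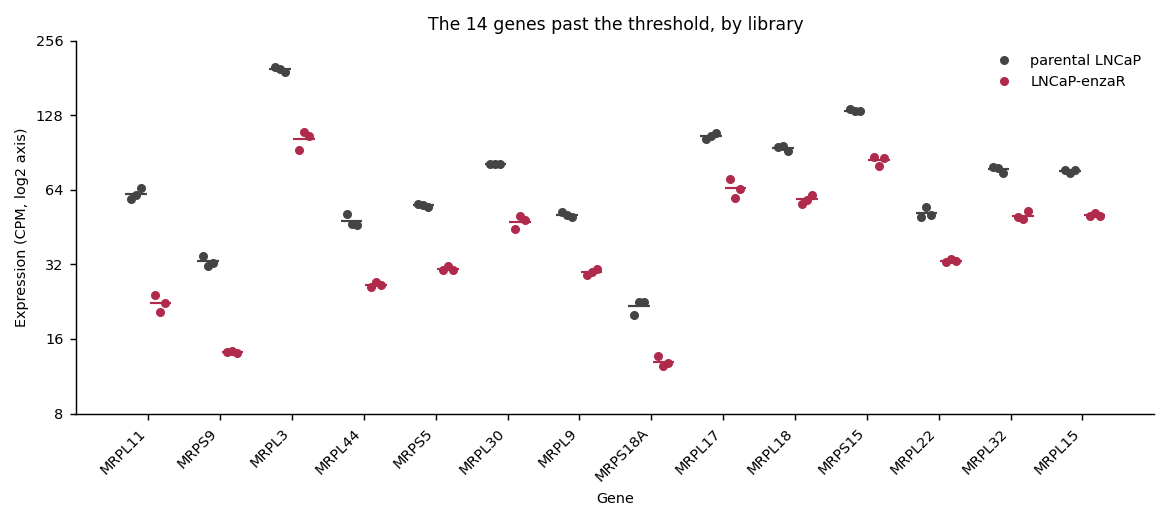
Expression (CPM, log2 axis) of the 14 genes past the threshold, with a point for each of the 3 parental and 3 LNCaP-enzaR libraries. For every gene the 3 LNCaP-enzaR points lie below the 3 parental points, from MRPL3, the highest, at 92.5 to 201 CPM down to the lowest, MRPS9 and MRPS18A.

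No member was higher past the threshold, but 3 large-subunit genes were higher at an adjusted p of at most 0.05 without reaching 1.5-fold. MRPL55 measured 38.3, 40.9 and 38.8 CPM in parental libraries and 60.5, 45.1 and 47.1 CPM in LNCaP-enzaR (log2 fold change 0.37, adjusted p = 0.00291, edgeR quasi-likelihood test), so that replicate 1 of the resistant line stood well above the others. MRPL33, a short protein with a bacterial homologue, was at 35.6, 37.2 and 37.3 CPM against 50.1, 43.2 and 45.4 CPM (0.33, adjusted p = 0.000618, edgeR quasi-likelihood test). MRPL35 was at 44.2, 42.1 and 40.4 CPM against 50.0, 53.2 and 54.5 CPM (0.32, adjusted p = 0.000486, edgeR quasi-likelihood test). For all 3 genes the lines did not overlap, and the direction was the same under each of the 17 alternatives. These 3 genes were chosen after their values were seen.

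Both large and small subunit genes had a median below 0. Of the 48 MRPL genes, 10 (20.8%) were past the threshold, and the median log2 fold change was −0.31. Whatever the fold, 32 (66.7%) were lower and 3 higher at an adjusted p of at most 0.05. Of the 29 MRPS genes, 4 (13.8%) were past the threshold, and the median was −0.20. Whatever the fold, 16 (55.2%) were lower and 0 higher (edgeR quasi-likelihood test). Of expressed protein-coding genes, 21.3% were lower past the threshold and 44.8% were lower whatever the fold. The summed expression of MRPL genes was 3546 ± 26.1 CPM in parental cells and 2898 ± 126 CPM in LNCaP-enzaR, so that it fell by 18.3%, and that of MRPS genes was 2130 ± 5.05 CPM and 1835 ± 60.3 CPM, so that it fell by 13.8% (SD, n = 3 each).

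The ratio of the large to the small subunit sum was 1.65, 1.67 and 1.67 in the parental libraries and 1.60, 1.55 and 1.59 in the LNCaP-enzaR libraries. The lines did not overlap, and the mean log2 ratio went from 0.74 ± 0.01 to 0.66 ± 0.02, a difference of −0.08. With 3 libraries in each line, the spread of this difference is known only roughly. Names do not always follow the structure, since MRPS30 and MRPS18A sit in the large subunit and MRPS36 is now regarded as a subunit of the alpha-ketoglutarate dehydrogenase complex. After these were moved or left out, 11 of 50 large-subunit genes (22%) and 3 of 26 small-subunit genes (11.5%) were past the threshold. The median log2 fold changes were −0.31 and −0.19, respectively, and the difference of the log2 ratio was −0.06.

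**Figure D3:**
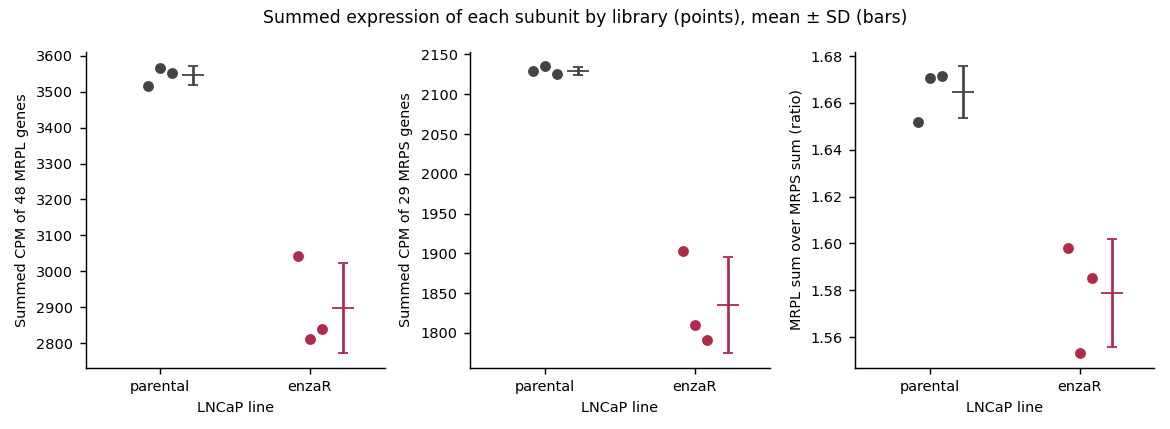
Summed expression (CPM) of the 48 MRPL genes and of the 29 MRPS genes, and their ratio, with a point for each library and bars for the mean ± SD. The axes do not start at 0, and in each panel the 3 LNCaP-enzaR libraries lie below the 3 parental ones, with ratios of 1.55 to 1.60 against 1.65 to 1.67.

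Members were also divided by a list of those counted as conserved counterparts of a bacterial ribosomal protein. MRPS18A and MRPS18B, paralogues of the conserved MRPS18C, were counted as mitochondria-specific, as was MRPL44, which is related to ribonuclease III enzymes. Of the 46 conserved members, 12 passed (26.1%, near the 21.3% of expressed protein-coding genes that were lower past the threshold), with a median log2 fold change of −0.27, and of the 30 mitochondria-specific members 2 passed (6.67%), MRPL44 and MRPS18A, with a median of −0.26. The difference between these groups was not tested. By subunit, 9 of 30 conserved and 2 of 20 mitochondria-specific genes of the large subunit passed (medians −0.37 and −0.31), as did 3 of 16 conserved and 0 of 10 mitochondria-specific genes of the small subunit (−0.24 and −0.04). Of those 10 small-subunit genes, 4 were lower at an adjusted p of at most 0.05 whatever the fold (edgeR quasi-likelihood test).

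Members that work side by side did not differ equally. The stalk is built from MRPL10, which anchors copies of MRPL12, next to MRPL11. MRPL10 measured 57.8, 59.3 and 58.0 CPM in parental cells and 65.7, 54.4 and 55.3 CPM in LNCaP-enzaR, with overlapping libraries and a log2 fold change of 0.00 (adjusted p = 0.979, edgeR quasi-likelihood test). The log2 ratio of MRPL11 over MRPL10 was 0.08 ± 0.08 (SD, n = 3) for the parental line and −1.39 ± 0.08 for LNCaP-enzaR. MRPL12 had a log2 fold change of −0.16 (adjusted p = 0.0355, edgeR quasi-likelihood test), which ranged from −0.47 to −0.06 over the alternatives with an adjusted p of up to 0.434, and 69.5% of its exonic bases are shared with a readthrough gene.

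The MRPS18 genes are 3 paralogues whose proteins occupy different sites of the mitoribosome. MRPS18A, which belongs to the large subunit, was at 20.0, 22.6 and 22.5 CPM against 13.7, 12.4 and 12.8 CPM, and 50.9% of its exonic bases lie in exons of RSPH9, which held at most 62 counts in any library. MRPS18B measured 97.4, 99.1 and 95.4 CPM in parental cells and 99.95, 93.4 and 94.9 CPM in LNCaP-enzaR, a log2 fold change of −0.02 (adjusted p = 0.787, edgeR quasi-likelihood test). The promoter of MRPS18B held the NRF1 core, as did that of MRPS18C. MRPS18C, the member of the trio closest to the bacterial protein, was lower by less than the fold limit, at −0.47 (adjusted p = 5.63e-05, edgeR quasi-likelihood test), and under the alternatives its adjusted p reached 0.0937. Of its exonic bases 40.2%, and of its canonical transcript 83.6%, lie in exons of other genes, the largest part in ABRAXAS1. That gene held 400 to 605 counts in parental and 792 to 1060 in LNCaP-enzaR libraries, so the values of MRPS18C are uncertain. Relative to MRPS18B, the log2 ratio went from −2.17 ± 0.11 to −2.89 ± 0.02 for MRPS18A and from −1.69 ± 0.08 to −2.15 ± 0.04 for MRPS18C.

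Members with other roles covered the same range. MRPL58, a peptidyl-tRNA hydrolase that became part of the large subunit, had a log2 fold change of −0.44 (adjusted p = 3.66e-05, edgeR quasi-likelihood test), and MRPL45, which ties the tunnel exit to the inner membrane, of −0.31 (adjusted p = 0.000218). In the decoding part of the small subunit, MRPS12 was at −0.08 (adjusted p = 0.417) and MRPS16 at −0.13 (adjusted p = 0.0377, edgeR quasi-likelihood test). MRPS22, a mitochondria-specific protein with disease mutations, was at 0.07 (adjusted p = 0.383), MRPS30 at 0.09 (adjusted p = 0.28) and MRPS36 at −0.21 (adjusted p = 0.0165, edgeR quasi-likelihood test). MRPL58 and MRPL45 passed on the adjusted p but not on the fold, under each of the 17 alternatives as well. MRPS16 and MRPS36 lost the adjusted p under some of them (up to 0.622 and 0.987), with log2 fold changes up to −0.03 and 0.00. MRPS12, MRPS22 and MRPS30 passed on neither limit, although their adjusted p fell to 0.000799, 0.000205 and 1.17e-07 under the GC correction (edgeR quasi-likelihood test).

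Levels of the members differed widely even though the proteins are, with few exceptions, present once per ribosome. Divided by the length of the canonical transcript, the median level was 44.2 CPM per kb in parental cells and 35.3 CPM per kb in LNCaP-enzaR. By the mean of both lines, the highest levels were those of MRPL41 (217 CPM per kb in parental cells and 251 in LNCaP-enzaR), MRPL20 (195 and 172) and MRPL37 (172 and 163), all of the large subunit. In LNCaP-enzaR alone, MRPL24 (171.9) lay just above MRPL20 (171.5). The lowest were MRPL2 (4.13 and 3.03), MRPL38 (1.74 and 2.11) and MRPS24 (0.383 and 0.302), the last with 11 to 32 counts per library. For these 3 genes, 54.5%, 94.3% and 90.9% of the canonical transcript lies in exons of another gene. How such shared reads were counted is not stated, so these low levels are uncertain.

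The order of the levels was largely shared. Log2 means of parental and LNCaP-enzaR libraries had a Pearson correlation of 0.97 over the 77 genes, which share libraries and are not independent. MRPL41 was at 119, 127 and 133 CPM against 174, 129 and 134 CPM, with a log2 fold change of 0.21 (adjusted p = 0.0642, edgeR quasi-likelihood test), and only LNCaP-enzaR replicate 1 stood well above the parental range. Its direction turned under the GC correction, to −0.17, and without that replicate it was at 0.07. MRPL20 was at −0.18 (adjusted p = 0.0259, and up to 0.309 over the alternatives) and MRPL37 at −0.08 (adjusted p = 0.279, edgeR quasi-likelihood test), which turned to 0.02 under upper-quartile scaling. In the plot of levels, the members lie along the line of equality and more often below it than above.

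**Figure D4:**
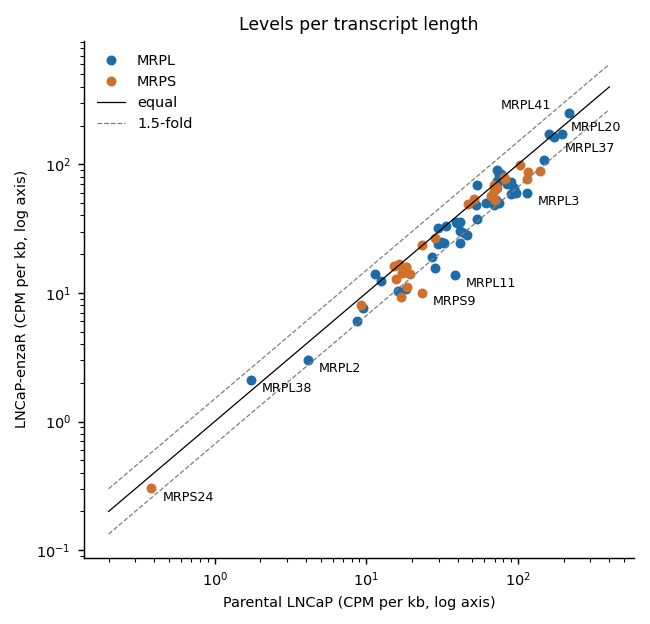
Mean level of each of the 77 genes in LNCaP-enzaR against its mean level in parental LNCaP (CPM per kb of canonical transcript, log axes), with lines for equal levels and for 1.5-fold differences. Levels span from 0.383 to 217 CPM per kb in parental cells, and 60 genes lie below the line of equality.

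The position of a member in the genome went along with its fold change. Members lay on 21 chromosomes, and all 4 on the long arm of chromosome 2, MRPS5, MRPL30, MRPS9 and MRPL44, were past the threshold, with a median log2 fold change of −0.86. The 374 expressed protein-coding genes of that arm had a median of −0.74, and 60.7% of them were lower past the threshold. On the short arm, MRPL33, MRPL19 and MRPL35 had a median of 0.32 with 0 genes past the threshold, beside a median of 0.35 over 285 expressed genes. MRPL33 and MRPL35 were thus close to the median of their arm, and of the 4 genes of the long arm MRPS9, at −1.22, lay under the arm's lower quartile of −1.08. No measurement of DNA copy number was analysed here, and its part in these values was not tested.

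On chromosome 11, all 7 members were lower in mean, 2 of them past the threshold (MRPL11 and MRPL17), with a median log2 fold change of −0.54 beside −0.36 over 579 expressed genes, of which 34% were lower past the threshold. MRPL11, at −1.46, was well under that median. Measured against the median of its own chromosome or arm, a member was lower in 56 cases and higher in 21, and the median difference was −0.12. Without the 7 members on chromosome 2, the median log2 fold change was −0.25, beside −0.09 for all expressed protein-coding genes. Past the threshold were 10 of 70 (14.3%), all lower, beside 21.3% of expressed protein-coding genes that were lower past it. The lower median of the group was therefore also present outside that chromosome, while the share past the threshold was not above the background.

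**Figure D5:**
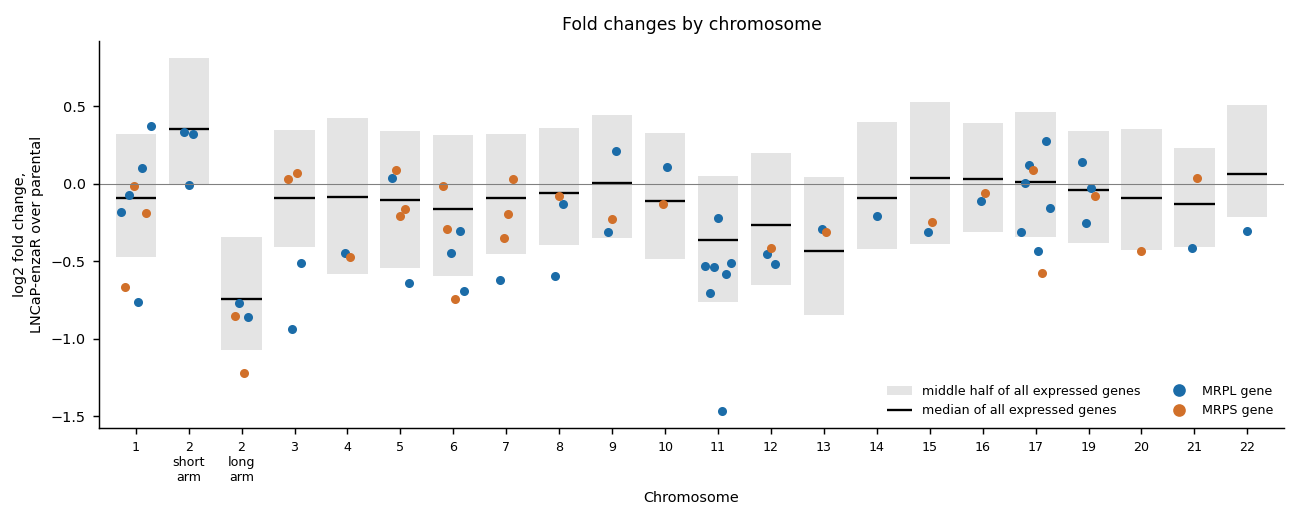
Log2 fold change (LNCaP-enzaR over parental) of each member by chromosome, with chromosome 2 split at the centromere, over grey boxes for the interquartile range and black lines for the median of all expressed protein-coding genes of that chromosome or arm. The 4 members on the long arm of chromosome 2 lie at −0.77 or lower around a gene median of −0.74, and those on the short arm at 0.33 or lower around a gene median of 0.35.

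Fold changes also went along with GC content. Of the 17 members with a GC content of at least 55% of exonic bases, 1 was past the threshold and the median log2 fold change was −0.11, of the 30 members between 45% and 55% 6 passed with a median of −0.30, and of the 30 members under 45% 7 passed with a median of −0.31. The expressed protein-coding genes in these classes had medians of 0.14, −0.10 and −0.22, so that the members' median was the lower in each class. The share of those genes that was lower past the threshold was 12.4%, 20.9% and 27.3%, and the members' counts past the threshold did not exceed it in any class. Spearman's rho of fold change and GC content was 0.21 over the members and 0.23 over 10180 expressed genes.

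A single library stood apart in this respect. LNCaP-enzaR replicate 1 differed from the other libraries of its line by a chi-square per degree of freedom of 31.4 and 39.8, whereas all other pairs within a line were between 5.88 and 9.82. For the 17 members of high GC content, its median deviation from the mean of its line was 0.18 on the log2 scale, against −0.11 and −0.06 in replicates 2 and 3, and for the 30 members of low GC content it was −0.03. It was the highest library of its line for 46 of the 77 members. Without it, 16 members were past the threshold and the median log2 fold change was −0.30, and the part of sequence composition in these values was not tested further than by the GC correction, which gave 13 members and −0.22.

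Genes with and without shared exons were both among those past the threshold. For 28 members another gene's exons covered more than 10% of the exonic bases, and 6 of these (21.4%) were past the threshold. Of the 49 other members 8 were (16.3%), with a median log2 fold change of −0.30. All of these were lower, beside 21.3% of expressed protein-coding genes that were lower past the threshold. Among the genes named above for their large differences, the shared part of all exonic bases was 4.69% for MRPL11, 20.3% for MRPS9, 9.36% for MRPL3, 13.3% for MRPL44 and 23.3% for MRPS5. Of the canonical transcript it was 0%, 24.0%, 14.2%, 13.3% and 97.1%, respectively. How shared reads were counted is not stated, so the values of MRPS5 are uncertain by this measure. MRPL20-AS1, an antisense RNA gene with 3194 to 5746 counts, was the most abundant of the 27 genes that matched the name pattern without coding for protein, and the others held at most 406 counts in a library.

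Other genes of mitochondrial translation covered both directions. Mitoribosomal proteins with other names (DAP3, PTCD3, CHCHD1, AURKAIP1 and GADD45GIP1) had a median log2 fold change of −0.03, and 0 of the 5 passed the threshold. PTCD3 was at 0.16 and GADD45GIP1 at −0.20 (both adjusted p = 0.0319, edgeR quasi-likelihood test). Of 28 assembly factors, 2 passed the threshold (7.14%), both lower, beside 21.3% of expressed protein-coding genes that were lower past it. The median of the assembly factors was −0.10. MTERF4, which guides the rRNA methyltransferase NSUN4, fell by 1.57 on the log2 scale (adjusted p = 7.21e-12) and RPUSD4, a pseudouridine synthase of the large rRNA, fell by 0.72 (adjusted p = 6.72e-08, edgeR quasi-likelihood test). MTERF4 lies on the long arm of chromosome 2, and 51.0% of its exonic bases are shared.

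A list of translation factors and genes with related roles, which also held LRPPRC, SLIRP, OXA1L, MTFMT and PDF, had a median of 0.02. The 2 of its 17 genes past the threshold (11.8%) were lower. Of the expressed protein-coding genes, 21.3% were lower past it. Whatever the fold, 5 genes of this list were higher and 5 lower at an adjusted p of at most 0.05 (58.8%, beside 78.7% of expressed protein-coding genes, edgeR quasi-likelihood test). GFM1, the elongation factor that moves the ribosome along the messenger RNA, was at 162, 156 and 157 CPM in parental cells and at 79.5, 90.2 and 83.6 CPM in LNCaP-enzaR (log2 fold change −0.91, adjusted p = 6.00e-09, edgeR quasi-likelihood test). MRRF, which recycles ribosomes after termination, was at 79.1, 77.7 and 79.3 CPM against 47.3, 47.1 and 47.6 CPM (−0.73, adjusted p = 2.62e-08, edgeR quasi-likelihood test). GFM1 and MRRF both act directly on the mitoribosome, and for neither did the lines overlap. GFM2 (log2 fold change 0.47, adjusted p = 2.73e-05) and TUFM (0.40, adjusted p = 0.000144, edgeR quasi-likelihood test) were higher without reaching 1.5-fold, also with no overlap.

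Genes that charge mitochondrial tRNAs had a median of −0.34, and the 5 of 22 past the threshold were lower. This share of 22.7% was near the 21.3% of expressed protein-coding genes that were lower past it. MARS2 (methionine) was at −0.92 and NARS2 (asparagine) at −0.87 (adjusted p = 1.99e-08 and 8.94e-08, edgeR quasi-likelihood test). MARS2 lies on the long arm of chromosome 2 and NARS2 on chromosome 11, where other expressed genes were lower as well.

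The messenger RNAs that the mitoribosome translates were higher. All 13 mitochondrially encoded messenger RNAs were higher past the threshold in LNCaP-enzaR, with a median log2 fold change of 1.24, as were the mitoribosome's own rRNAs, MT-RNR2 (1.18) and MT-RNR1 (0.64). Of expressed protein-coding genes, 16.8% were higher past the threshold. MT-ND6 was at 547, 575 and 547 CPM against 1504, 1573 and 1589 CPM (1.48, adjusted p = 7.87e-12, edgeR quasi-likelihood test), and MT-ND5 at 2422, 2650 and 2564 CPM against 7476, 7033 and 6797 CPM (1.48, adjusted p = 1.92e-11, edgeR quasi-likelihood test). These libraries were made by poly(A) selection. For the mitochondrial messenger RNAs, MT-ND6 among them, and for the rRNAs, a higher level and a better capture cannot be told apart. Cytosolic ribosomal protein genes, the counterpart outside mitochondria, had a median of −0.10, near the −0.09 of expressed protein-coding genes. Past the threshold were 4 of 83 (4.82%), 3 lower and 1 higher, beside 38.1% of expressed protein-coding genes. Whatever the fold, 35 were lower (42.2%, beside 44.8%) and 8 higher at an adjusted p of at most 0.05 (edgeR quasi-likelihood test).

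Libraries held 77759122 to 98616465 counts, and the correlation of log2 CPM across genes, which are not independent, was 0.990 to 0.992 within a line and 0.921 to 0.926 between lines. The markers of LNCaP cells KLK3, FOLH1, HOXB13, EPCAM, KRT8 and KRT18 were detected in every library, with KLK3 lower in LNCaP-enzaR (log2 fold change −3.08). Of 9 markers of other cell types in the table, those of leukocytes (PTPRC), basal epithelium (KRT5 and TP63) and, for PECAM1, endothelium held at most 5 counts in any library, while VWF, also of endothelium, held 345 to 555 counts. The fibroblast markers went in different directions. COL1A1 held 1145 to 1184 counts in parental and 358 to 414 in LNCaP-enzaR libraries, and COL3A1 100 to 133 and 94 to 98. LUM held 30 to 47 and 107 to 170 counts, respectively, and DCN 0 to 1 and 2 to 20. Scaled to 1000000 counts per library, the 9 markers summed to 20 to 23.2 in the parental and 10.6 to 11.2 in the LNCaP-enzaR libraries, and their part in the values above was not tested.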

How the data were processed

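RNA was sequenced from 3 flasks each of parental LNCaP and LNCaP-enzaR cells, grouped by their titles. The authors selected polyadenylated RNA, trimmed paired-end reads with Cutadapt, aligned them to GRCh38.p13 with STAR and GENCODE v38, and summarised them by gene with featureCounts, and the deposited values are the resulting raw counts. Strand setting and treatment of reads in several genes or places are not given in the sources used here, so genes with shared exons, antisense genes and near-identical copies are uncertain. Lengths, GC content, strand and exon overlap came from GENCODE v44, of the same build, which held all 77 members by identifier, 73 with the same coordinates.

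The counts were tested in R 4.3.3 with edgeR 4.0.16 (filterByExpr, TMM, robust quasi-likelihood F-test, no covariates), with Benjamini-Hochberg adjustment over 19711 genes. The limits, an adjusted p of 0.05 and 1.5-fold, are those of the study's methods, which used DESeq2 (here version 1.42.0, as an alternative). CPM are counts scaled to 1000000 per TMM-scaled library. Members and gene lists were chosen with earlier results of these data known. Genes named were the 5 members past the threshold with the lowest fold change at a mean of at least 5 CPM, a list of members with known roles, 3 members at either end of the order by CPM per kb, the 2 genes of each partner list with the smallest p, and members with shared exons or calls that changed. Others were chosen after their values were seen. No set test was run. Results were recomputed with DESeq2, other scalings, filters and fold limits, a GC correction, each library left out in turn, a block for replicate number, and subunits assigned by structure. Library totals of 77759122 to 98616465 counts limit precision only for the lowest genes.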

Additional observations from a re-analysis of the deposited data

How the results depend on the processing

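Every alternative kept the members' median and sum lower in LNCaP-enzaR. DESeq2 gave 13 members past the threshold, all of them lower, against 14 with edgeR. Upper-quartile scaling moved the median log2 fold change of all genes from 0.01 to 0.11, that of the members to −0.15 and the log2 change of their sum to −0.16, and it left 10 members past the threshold. With the GC correction the log2 change of the large to small subunit ratio was −0.11, with and without the replicate block. Without a minimum fold, 51 members passed, 3 higher and 48 lower, beside 13074 of all genes, and at 2-fold 2 members passed, both lower, beside 5561 of all genes. Among members with at most 10% of shared exonic bases, an alternative chosen after seeing the data, 8 of 49 passed (16.3%). Leaving out each library in turn gave 13 to 16 members past the threshold, all lower (0 to 0 higher), 8372 to 8517 of all genes, medians of −0.30 to −0.21, log2 changes of the sum of −0.29 to −0.24 and of the ratio of −0.09 to −0.06. The labels do not say that replicate numbers pair the flasks. The deviations of same-numbered libraries correlated at −0.07, −0.00041 and −0.05, so no pairing was seen, although 3 libraries per line cannot exclude a weak one. With the replicate number as a block, 15 members were past the threshold and 8212 of all genes were. Besides the calls lost that are named above, MRPS7, MRPS26, MRPL21, MRPL42 and MRPL23 passed under some of the 17 alternatives that kept the limits, and 58 members passed under none of these 17. MRPL23 passed without LNCaP-enzaR replicate 1 (−0.68) and with the GC correction (−0.80), and MRPL42 passed without replicate 2 of that line (−0.61). Counts were lowest for MRPS24, at 11 to 32 per library (SE 0.49), then for MRPL38 (SE 0.14) and MRPL2 (SE 0.13), against a median SE of 0.07. The causes of these differences were not tested.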
